A study of Schmidtea mediterranea with 100 samples.

Results

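The genes described here are the planarian PIWI genes piwi-1, piwi-2 and piwi-3, the Tudor-domain gene tdrd112 and the RNA-binding protein gene bruli, 5 genes in all. They were found by their identifiers, which begin with Smedwi-1, Smedwi-2, Smedwi-3, Smed-tdrd112 or Smed-bruli. Each gene had 1 row in the bulk table of 67386 transcripts and 1 row with the same identifier in the single-cell table of 38237. The study sorted cells of the planarian flatworm Schmidtea mediterranea by their DNA content (Hoechst) and RNA content (pyronin Y). Every sample came from dissociated whole animals of the asexual clonal strain CIW4, stained in the same way. The groups were bulk RNA of the RNA-low, S/G2/M, G1 and PM gates, with 1 library per gate, and 96 single RNA-low cells. PM is not spelled out in the labels and is used here as given. The animals and pools behind the libraries are not named there, so all single cells together count as 1 sample.

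PIWI proteins bind small RNAs called piRNAs and, guided by them, silence transposable elements and other transcripts. In most animals they act in the germ line, whereas planarians also use them in neoblasts, the dividing stem cells from which all other cell types of the adult are renewed. The gene piwi-1 is the customary marker of neoblasts, and piwi-2 and piwi-3 are needed for regeneration. Tudor domains bind methylated arginines, which in many animals is how Tudor proteins dock onto PIWI proteins. The protein made from bruli belongs to the Bruno or CELF family of RNA-binding proteins and is needed for neoblasts to be maintained.

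The bulk libraries held 47338591 to 74968402 counted reads, and of these 16.8% to 35.1% were ribosomal RNA, the highest share being in PM. Transcripts with more than 1 read, up to a fixed upper limit, were tallied by their read count. Among these the commonest count was 5 reads in RNA-low, 22 in S/G2/M, 10 in G1 and 26 in PM. These values were taken as rough estimates of the reads per fragment, and intervals are given on reads divided by them. Levels are CPM (counts per 1000000 reads) of a library after scaling by TMM (trimmed means of M values), not amounts per cell. In bulk samples, fewer cells of a type and less of its RNA per cell cannot be told apart. With 1 library per gate no difference between gates has a replicate check, no p-value is possible, and all 95% intervals cover counting error only. Replication and mitosis genes were set beside the gate labels, but they could not tell RNA-low from PM. In RNA-low and PM, mcm2 was at 9.12 and 12.9 CPM and CyclinB2 at 39.5 and 30.1 CPM. PCNA stood at 40.7 CPM in RNA-low, 446 in S/G2/M, 99.4 in G1 and 36.6 in PM, and the sum of 18 prog-1 and prog-2 family transcripts, markers of early epidermal progeny, was 1860, 6405, 29657 and 20171 CPM in the same order of gates, with 1 of the 18 at 0 in RNA-low. Of markers of other tissues, the neural genes COE and elav-2 were highest in RNA-low (76.1 and 63.4 CPM) and at 7.29 to 27.5 CPM in the other gates, and the epidermal gene vim-1 and the muscle gene titin were highest in PM (112 and 12.9 CPM). The intestinal gene porcnA had the gate order of piwi-1 and piwi-2, at 94.9 CPM in RNA-low, 134 in S/G2/M, 73.8 in G1 and 70.0 in PM, whereas porcn-B, also intestinal, was lowest in S/G2/M (31.4 CPM). The part that cells of these kinds play in the levels below was not tested.

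All 5 genes had their lowest level in the PM library, and 4 of them had their highest in S/G2/M. Of the 13992 transcripts that reached 5 CPM in any gate, 37.6% were lowest in PM, 34.3% were highest in S/G2/M and 23.7% were both. The exception was piwi-3, which was highest in RNA-low, as were 30.6% of all transcripts.

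The level of piwi-1 was 1594 CPM in RNA-low (1572 to 1617), 3640 in S/G2/M (3572 to 3709), 1309 in G1 (1281 to 1339) and 544 in PM (511 to 580). It had the widest range of the 5, 6.69-fold between S/G2/M and PM, and no intervals of neighbouring gates overlapped. For piwi-2 the values were 3292 CPM in RNA-low (3259 to 3325), 3820 in S/G2/M (3751 to 3891), 2495 in G1 (2455 to 2536) and 1662 in PM (1603 to 1722). Its range was only 2.30-fold. It was also among the transcripts with most reads, not corrected for length, at place 10 of all transcripts in RNA-low and between places 17 and 23 in the other gates. The level of piwi-3 was 2261 CPM in RNA-low (2234 to 2288), 1980 in S/G2/M (1930 to 2031), 1537 in G1 (1506 to 1569) and 981 in PM (936 to 1027), again a range of 2.30-fold. The PIWI genes thus formed 1 steep profile, that of piwi-1, and 2 shallow ones.

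The Tudor gene tdrd112 stood at 185 CPM in RNA-low (177 to 193), 536 in S/G2/M (510 to 563), 228 in G1 (216 to 241) and 108 in PM (93.5 to 124). The corresponding levels of bruli were 292 CPM (282 to 302), 806 (774 to 838), 383 (368 to 399) and 212 (192 to 235). Both genes had the order S/G2/M, G1, RNA-low and PM, so that RNA-low lay below G1, whereas all 3 PIWI genes were higher in RNA-low than in G1. Their ranges were 4.95-fold for tdrd112 and 3.8-fold for bruli. Together the 5 genes took 0.790% of all reads in RNA-low, 0.95% in S/G2/M, 0.655% in G1 and 0.349% in PM. The order of gates was the same under 3 other scalings for all genes but piwi-2, whose RNA-low level passed its S/G2/M level when library totals were used.

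**Figure D1:**
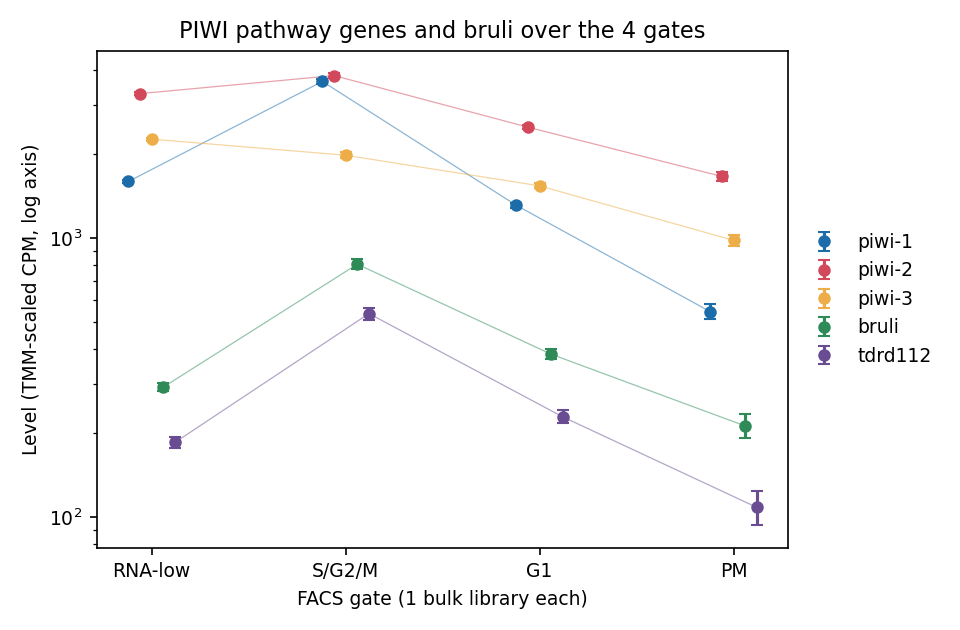
Levels of the 5 genes in the 4 bulk libraries, in TMM-scaled CPM on a log axis, with 95% intervals on estimated fragments; the thin lines only join points of 1 gene. The lines of piwi-1, bruli and tdrd112 peak in S/G2/M, while those of piwi-2 and piwi-3 are shallow, and every gene is lowest in PM.

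A transcript was called higher or lower between a pair of gates when the ratio of levels, after 0.5 CPM was added to each, was at least 2-fold and the interval on reads excluded equality. Between RNA-low and G1 no member was called, against 16.9% of all transcripts (7.12% higher and 9.78% lower in RNA-low). Of transcripts that reached 50 CPM, a level every member passed in every gate, 11.1% were called. The log2 ratios of RNA-low over G1 were 0.28 (0.25 to 0.32) for piwi-1, 0.40 (0.37 to 0.43) for piwi-2 and 0.56 (0.52 to 0.59) for piwi-3, but -0.30 (-0.40 to -0.20) for tdrd112 and -0.39 (-0.47 to -0.31) for bruli. These intervals lay on opposite sides of 0 for the PIWI genes and the other 2. The median of the 5 was 0.28, beside 0.10 over all 11890 transcripts.

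Between RNA-low and S/G2/M, 3 of the 5 were called lower in RNA-low, where 40.6% of all transcripts were called, 18.1% lower and 22.5% higher. They were tdrd112 with a log2 ratio of -1.53 (-1.63 to -1.44), bruli with -1.46 (-1.54 to -1.39) and piwi-1 with -1.19 (-1.23 to -1.16). The ratio of piwi-2 was -0.21 (-0.24 to -0.18) and that of piwi-3 was 0.19 (0.15 to 0.23). The median of the members was -1.19, against -0.0045 over all 12040 transcripts. Of transcripts that reached 50 CPM, 33.7% were called in either direction. With library totals, which put the median log2 ratio of all transcripts 0.23 higher, piwi-1 was at -0.96 and no longer called, and piwi-2 was at 0.02.

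Between RNA-low and PM, piwi-1 and piwi-3 were called higher in RNA-low, where 33.8% of all transcripts were called, 14.6% higher and 19.2% lower. Their log2 ratios were 1.55 (1.46 to 1.64) for piwi-1 and 1.20 (1.14 to 1.27) for piwi-3. Just short of 2-fold was piwi-2 at 0.99 (0.93 to 1.04), followed by tdrd112 at 0.77 (0.57 to 0.99) and bruli at 0.46 (0.31 to 0.62). Among transcripts that reached 50 CPM, 26.2% were called in either direction. Scaling by totals without ribosomal RNA, a shift of -0.29 in the overall median, left piwi-1 as the only member called. With library totals 3 were called, as piwi-2 passed the threshold at 1.04.

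Against G1, S/G2/M had 3 members called higher, where 30.8% of all transcripts were called, 12.6% higher and 18.2% lower. Among transcripts that reached 50 CPM, 23.4% were called in either direction. The log2 ratios were 1.47 (1.43 to 1.52) for piwi-1, 1.23 (1.13 to 1.34) for tdrd112 and 1.07 (0.99 to 1.16) for bruli, while piwi-2 was at 0.61 (0.58 to 0.65) and piwi-3 at 0.36 (0.32 to 0.41). With library totals, a median shift of -0.31, piwi-1 alone was called. With totals without ribosomal RNA, a median shift of -0.22, 2 were called and bruli was at 0.84. Against PM all 5 were called higher in S/G2/M, where 48.3% of all transcripts were called, 22.5% higher and 25.8% lower. At 50 CPM or more the share called in either direction was 46.1%. The log2 ratio of tdrd112 was 2.30 (2.1 to 2.53), next to 2.74 (2.65 to 2.84) for piwi-1. Bruli followed at 1.92 (1.77 to 2.08) and piwi-2 at 1.20 (1.14 to 1.26). Of the 5, piwi-3 was nearest to the threshold, at 1.01 (0.94 to 1.09). Totals without ribosomal RNA, a median shift of -0.43, left 3 called, with piwi-2 at 0.76 and piwi-3 at 0.57. Library totals, a median shift of -0.17, left 4 called, with piwi-3 at 0.84.

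G1 against PM had 2 members called higher in G1, where 22.7% of all transcripts were called, 7.93% higher and 14.7% lower. Of transcripts that reached 50 CPM, 10.6% were called in either direction. The 2 members called were piwi-1 at a log2 ratio of 1.27 (1.17 to 1.36) and tdrd112 at 1.07 (0.86 to 1.30). With totals without ribosomal RNA, a median shift of -0.21, tdrd112 was at 0.86. The others stood at 0.85 (0.70 to 1.01) for bruli, 0.65 (0.58 to 0.72) for piwi-3 and 0.59 (0.53 to 0.64) for piwi-2. The comparisons share libraries, so these ratios are not independent of one another.

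The ratio of the reads of 2 members within 1 library does not depend on how libraries are scaled, and transcript length cancels when the ratio is compared between gates. The reads of piwi-1 were 0.484 of those of piwi-2 in RNA-low (0.476 to 0.493), 0.953 in S/G2/M (0.928 to 0.978), 0.525 in G1 (0.511 to 0.539) and 0.328 in PM (0.305 to 0.352). S/G2/M stood apart from the other 3 gates, in which the ratio was 0.525 or lower. Relative to piwi-3, piwi-1 reads ran at 0.705 in RNA-low, 1.84 in S/G2/M, 0.852 in G1 and 0.555 in PM. Of the reads of the 5 genes together, piwi-1 made up 20.9% in RNA-low, 33.8% in S/G2/M, 22.0% in G1 and 15.5% in PM.

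Among the 10 pairs of members, 7 had ratios that differed by 2-fold or more between their highest and lowest gate, and 2 pairs stayed within 1.5-fold. Those were tdrd112 with bruli, at 0.634 in RNA-low (0.600 to 0.669), 0.665 in S/G2/M (0.624 to 0.709), 0.596 in G1 (0.557 to 0.638) and 0.511 in PM (0.426 to 0.606), and piwi-3 with piwi-2. Their ranges over the gates were 1.30-fold and 1.33-fold. The piwi-3 to piwi-2 ratio was highest in RNA-low at 0.687 (0.676 to 0.698) and lowest in S/G2/M at 0.518 (0.502 to 0.535), with 0.616 in G1 and 0.590 in PM between them. For tdrd112 to bruli, the RNA-low value differed from the S/G2/M value by -0.07 on the log2 scale (-0.19 to 0.05) and from the G1 value by 0.09 (-0.04 to 0.21), neither beyond counting error. RNA-low exceeded PM by 0.31 (0.05 to 0.58), and S/G2/M exceeded PM by 0.38 (0.12 to 0.66) and G1 by 0.16 (0.02 to 0.29).

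RNA-low was also the gate in which reads of bruli, and likewise of tdrd112, were fewest relative to each of the PIWI genes. For tdrd112 the RNA-low ratios were 0.116 to piwi-1, 0.0562 to piwi-2 and 0.0819 to piwi-3. Between RNA-low and PM its log2 ratio to piwi-2 differed by -0.21 (-0.43 to 0.02), within counting error. Relative to piwi-2, bruli reads stood at 0.0887 in RNA-low (0.0857 to 0.0919), 0.211 in S/G2/M (0.202 to 0.220), 0.154 in G1 (0.147 to 0.161) and 0.128 in PM (0.115 to 0.142). Relative to piwi-1 they were 0.183 in RNA-low (0.177 to 0.190), 0.221 in S/G2/M, 0.293 in G1 and 0.389 in PM (0.345 to 0.439). Between RNA-low and G1 the log2 ratio of bruli to piwi-3 differed by -0.95 (-1.03 to -0.86) and that of tdrd112 to piwi-3 by -0.86 (-0.96 to -0.76). So although no member was called between RNA-low and G1, the proportions among the members differed between these libraries beyond counting error.

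**Figure D2:**
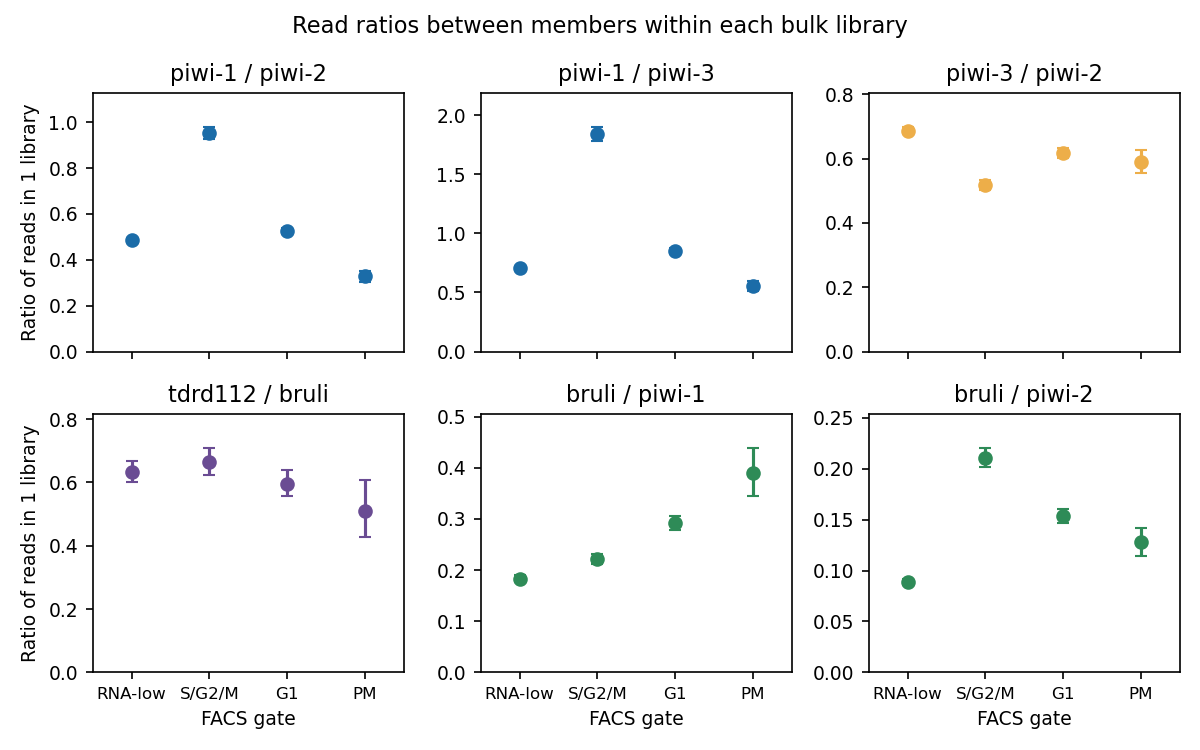
Ratio of the reads of 2 members within each bulk library, with 95% intervals on estimated fragments; each axis starts at 0 and the ratios are not corrected for transcript length. The ratio of piwi-1 to piwi-2 is 0.953 in S/G2/M and at most 0.525 elsewhere, while tdrd112 to bruli stays between 0.511 and 0.665.

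The named transcripts most like each member over the gates were found by the distance between log2 profiles, each centred on its mean over the 4 gates, among 119 named transcripts. With 4 libraries many profiles are alike, and the distances are descriptions only. The nearest to bruli was tdrd112, and the nearest to tdrd112 was bruli (distance 0.29). For piwi-3 it was piwi-2 (0.29), and piwi-3 was the second nearest to piwi-2, after Med31 (0.18), which encodes a Mediator subunit and was expressed at 7.06 to 16.0 CPM. The nearest to piwi-1 were a Wnt ligand transcript, wntP-3 (0.49), and the Mediator subunit transcript Med27 (0.52), followed by tdrd112 (0.58). The DNA damage kinase transcript ATM was second nearest to tdrd112 (0.40).

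Other genes of the PIWI pathway could be followed only through tdrd112, as it was the 1 gene matched among 14 names sought for the pathway and germ granules. Only 163 of the 67386 bulk transcripts carry a gene name, so the search could not tell whether the other genes were present without a name. The listed RNA-binding regulators found in the bulk table were mex3-1 and mex3-3 of a family with KH domains and the Musashi genes msi-1 and msi-2. Each of them was lowest in S/G2/M, whereas every member was lowest in PM. All 4 regulators were called higher in RNA-low than in S/G2/M, as were 22.5% of all transcripts. In S/G2/M mex3-3 and msi-1 were at only 2.41 and 1.77 CPM. Levels of mex3-1 were 921 CPM in RNA-low, 253 in S/G2/M, 641 in G1 and 478 in PM. The chromatin remodeller gene chd4, at 611, 92.2, 362 and 285 CPM in that order of gates, was likewise lowest in S/G2/M. The replication genes PCNA and mcm2 and the mitotic cyclin gene CyclinB2 were highest in S/G2/M, like 4 of the members. All 3 were called lower in RNA-low than in S/G2/M, as were 18.1% of all transcripts.

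Single cells showed how these transcripts were spread within the RNA-low gate. Cells with at least 500 detected transcripts were kept, which left 79 of 96. The kept cells had a median of 152963 reads other than ribosomal RNA, from 856 to 705047, and 2075 detected transcripts. The 17 cells left out had a median of 88319 such reads but 389 transcripts. No pair of cells had identical counts. The method, Smart-seq2, reads whole transcripts without molecular identifiers, so reads are not independent molecules, and no caller for doublets was run.

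Reads of at least 1 PIWI gene were found in 78 of the 79 kept cells (98.7%, exact binomial interval 93.1 to 100). Reads of piwi-2 were present in 74 cells (93.7%), of piwi-3 in 57 (72.2%), of piwi-1 in 51 (64.6%), of bruli in 35 (44.3%, 33.1 to 55.9) and of tdrd112 in 11 (13.9%, 7.16 to 23.5). Only 61 transcripts of the single-cell table, piwi-2 among them, were read in as many kept cells or more, and the median transcript found in any kept cell was read in 2. In the cells left out, piwi-1 was read in 6 of 17, piwi-2 in 4 and piwi-3 in 3. Neither bruli nor tdrd112 was read in any of the 17, which allows a share of up to 17.6% for each by the limit of 3 cells, and 19.5% by the exact binomial interval.

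The number of reads per positive cell separated piwi-1 from piwi-2. In the 74 cells with piwi-2 the lowest, median and highest counts were 2, 308.5 and 3122 reads, and only 3 cells had 1 to 4 reads. In the 51 cells with piwi-1 they were 1, 52 and 1104 reads, and 14 cells (27.5%) had 1 to 4. Over all transcripts other than ribosomal RNA, 36.8% of detections were of 1 to 4 reads. Counts of piwi-3 ran from 1 to 1409 with a median of 120, those of bruli from 1 to 1552 with a median of 90, and those of tdrd112 from 2 to 183 with a median of 37. When 10 reads were required, 68 cells had piwi-2, 46 piwi-3, 32 piwi-1, 29 bruli and 8 tdrd112. The share for piwi-1 was then 40.5%, close to the 36.7% for bruli.

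**Figure D3:**
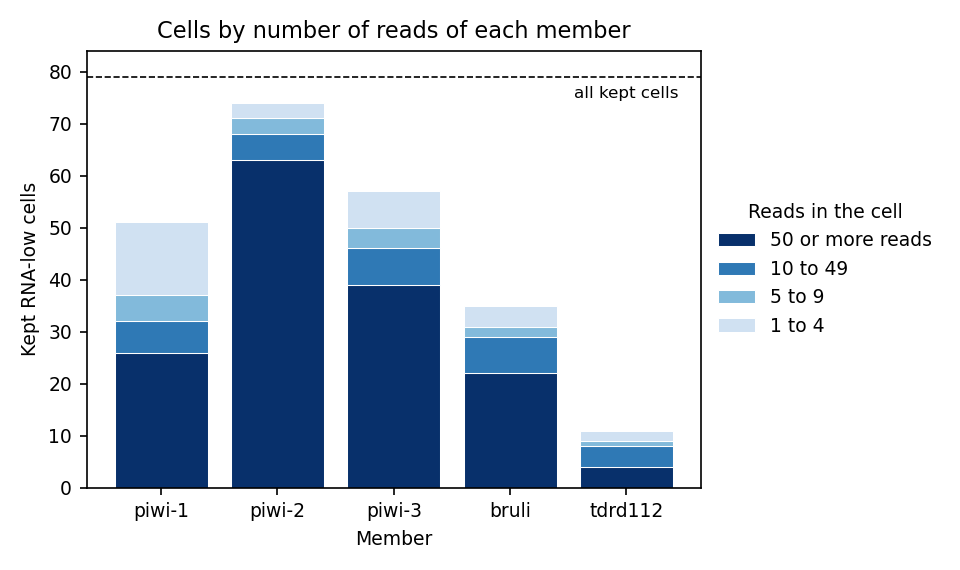
Number of kept RNA-low cells (of 79, dashed line) by the reads they hold of each member, from 50 or more at the bottom of a bar to 1 to 4 at the top. Most piwi-2 cells, 63 of 74, have 50 or more reads, against 26 of 51 piwi-1 cells.

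The level in CPM of reads other than ribosomal RNA varied widely among positive cells. It ran from 9.08 to 9282 CPM for piwi-2, with a median of 2025 and quartiles of 859 and 3617. For piwi-1 it ran from 3.35 to 5868, with a median of 465 and quartiles of 39.3 and 1652. The medians were 947 CPM for piwi-3, 538 for bruli and 99.6 for tdrd112. Summed over the 79 cells, 1 cell gave 20.7% of all bruli reads while another gave 30.6% of all tdrd112 reads. The top 3 cells gave 46.5% of the bruli reads and 72.7% of the tdrd112 reads. For the PIWI genes the top cell gave 8.54% to 9.99%.

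Set against the RNA-low bulk library on the same basis, CPM of reads other than ribosomal RNA, the pooled cells held 766 against 1986 for piwi-1, 2535 against 4101 for piwi-2 and 1003 against 2817 for piwi-3. For tdrd112 the values were 41.4 in the pooled cells and 231 in bulk. On this basis only bruli was higher in the pooled cells, at 520 against 364 CPM, and at 419 without its top cell. With all reads as the total the direction for bruli turned, to 65.7 CPM in the pooled cells against 303 in bulk. That total includes ribosomal RNA. The kept cells had a median of 1098150 reads with it and 152963 without, and it made up 16.9% of the RNA-low bulk library. Without its top cell tdrd112 was at 29.3 CPM of reads other than ribosomal RNA. The pooled values also moved when 44 transcripts read in at least 90 of the 96 cells were left out of the total. They were then 1174 CPM for piwi-1, 3888 for piwi-2, 1539 for piwi-3, 798 for bruli and 63.6 for tdrd112. No bulk values were set beside these. The library methods differ, so these values are set side by side only.

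The proportions of the PIWI genes varied widely from cell to cell. In the 47 cells with reads of both, the ratio of piwi-1 to piwi-2 reads ran from 0.00166 to 44.3, with a median of 0.331 and quartiles of 0.0169 and 0.743, beside 0.484 in the RNA-low bulk library. Many low ratios rest on few reads. The lowest came from a cell with 1 read of piwi-1 and 603 of piwi-2, and 14 of the 51 piwi-1 cells had 1 to 4 piwi-1 reads. There were 66 cells with at least 50 reads of these 2 genes together, a limit chosen after the values were seen. In 38 of them piwi-1 made up under 5% of the pair's reads, in 3 piwi-2 did, and in 8 piwi-1 had more reads than piwi-2. In bulk, piwi-1 made up 32.6% of the pair's reads, and in the pooled cells 23.2%. The piwi-3 to piwi-2 ratio, nearly even over the bulk gates, ran from 0.000758 to 10.7 in 55 cells, with a median of 0.426. Of 67 cells with at least 50 reads of that pair, 22 had under 5% of them from piwi-3 and 1 had under 5% from piwi-2.

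**Figure D4:**
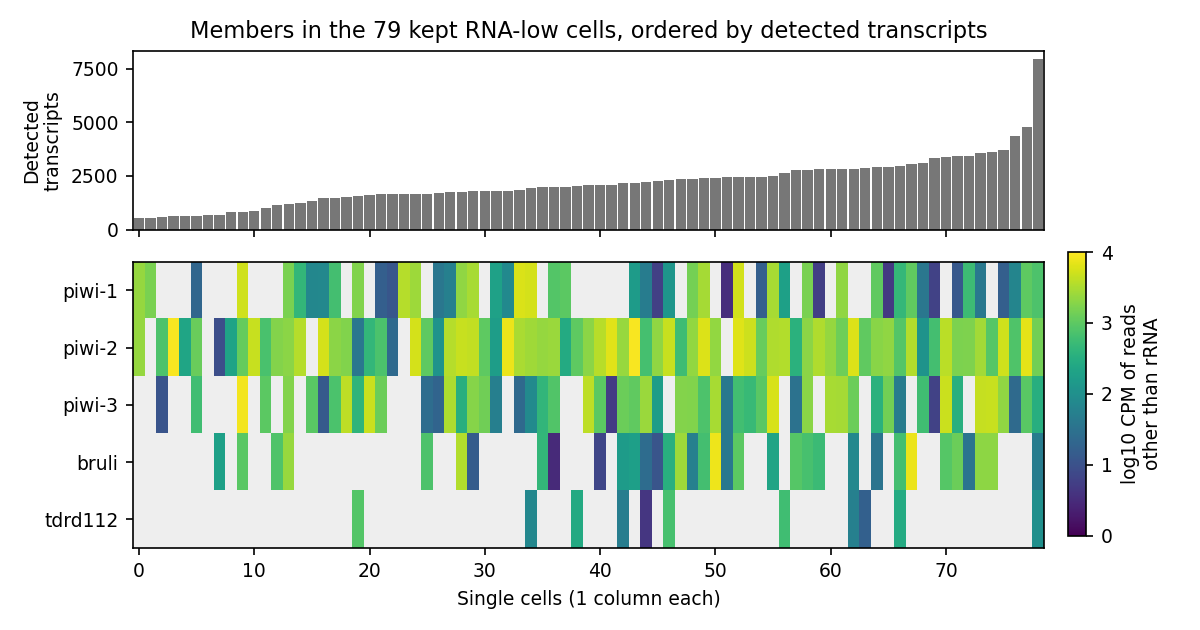
Each column is 1 of the 79 kept RNA-low cells, ordered by its number of detected transcripts (bars above, 531 to 7946), and colour gives the log10 CPM of each member among reads other than ribosomal RNA, with grey for no reads. The row of piwi-2 is nearly filled, those of piwi-1 and piwi-3 are broken along the whole range, and bruli and tdrd112 are sparse at its low end.

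Reads of at least 2 of the 5 genes were found in 72 cells (91.1%, 82.6 to 96.4) and of at least 3 in 52 (65.8%). All 3 PIWI genes were read together in 36 cells (45.6%, 34.3 to 57.2), exactly 2 of them in 32 and 1 in 10. Of 32 possible combinations of the 5 genes, 18 occurred. The most frequent were the 3 PIWI genes alone, in 16 cells, and the 3 with bruli, in 15. Next came piwi-2 with piwi-3 in 9 cells and the same pair with bruli in 8, both without piwi-1.

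The other members were read in similar shares of the cells with piwi-1 and of those without it. Among the 51 cells with piwi-1 reads, 47 had piwi-2 (92.2%, 81.1 to 97.8), and among the 28 without piwi-1 reads, 27 had piwi-2 (96.4%, 81.7 to 99.9). Bruli was read in 45.1% of the cells with piwi-1 and in 42.9% of those without. For piwi-3 the shares were 74.5% with piwi-1 (60.4 to 85.7) and 67.9% without (47.6 to 84.1). The widest gap in a pair with at least 20 cells on each side was that of piwi-3 and bruli. Bruli was read in 29 of the 57 cells with piwi-3 (50.9%, 37.3 to 64.4) and in 6 of the 22 without (27.3%, 10.7 to 50.2), and these intervals overlap. Spearman correlations of CPM across the 79 cells, which share a gate and differ in depth, ran from -0.12 for piwi-3 with tdrd112 to 0.26 for piwi-3 with bruli over the 10 pairs.

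**Figure D5:**
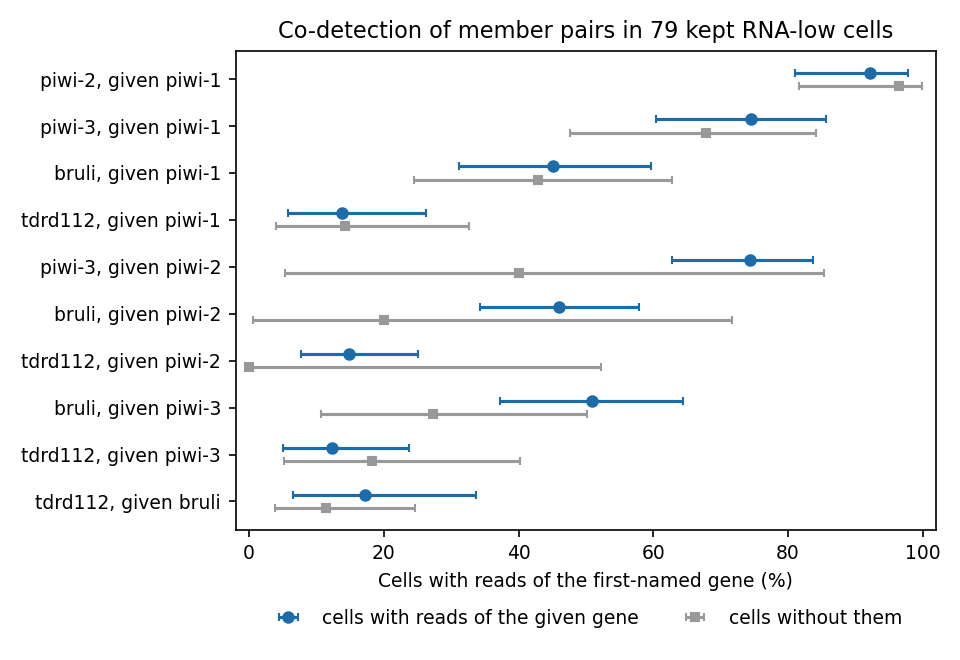
Percentage of kept RNA-low cells with reads of the first-named gene among cells with reads of the given gene (circles) and among cells without them (squares), with exact 95% binomial intervals. The intervals of circles and squares overlap in all 10 pairs shown.

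Detection moved with the number of transcripts detected in a cell. Cells were divided into 3 groups by this number. In the lowest group (531 to 1681 transcripts, 26 cells) bruli was read in 5 cells and piwi-3 in 13. In the middle group (1712 to 2436, 27 cells) the numbers were 16 and 23, and in the highest (2439 to 7946, 26 cells) 14 and 21. Within the 3 groups, from low to high, 3 of 5, 15 of 16 and 11 of 14 bruli cells also had piwi-3 reads. For piwi-1 the cells with reads numbered 14, 18 and 19 from the lowest to the highest group, and for piwi-2 22, 26 and 26. Separately, 73 cells were thinned to 50000 reads other than ribosomal RNA each, with 6 shallower cells left out. The shares were then 93.2% for piwi-2, 69.9% for piwi-3, 57.5% for piwi-1, 45.2% for bruli and 15.1% for tdrd112. Thinning evened out reads, not detected transcripts, and the lowest group already had a median of 102769 such reads. The thinned shares were not split by group, so whether the dependence on detected transcripts remained was not tested.

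The 5 kept cells without piwi-2 reads differed among themselves. In 2 of them piwi-1 was the only member read, with 694 and 299 reads in cells that had 1673 and 546 detected transcripts. One had 94 piwi-3 reads with 7 of piwi-1, and another had 12 reads each of piwi-3 and bruli with 1 of piwi-1. The last had no reads of any member among 71489 reads other than ribosomal RNA. At the other end, 3 cells held reads of all 5 genes, with 7946, 2948 and 2213 detected transcripts. All 11 cells with tdrd112 reads also had piwi-2, 7 had piwi-1, 7 had piwi-3 and 6 had bruli. Over all kept cells piwi-2 was read in 93.7%.

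Other transcripts in the same cells were set beside the members. PCNA, mcm2 or CyclinB2 was read in 7 kept cells, and in those 7 piwi-1 was read in 7, piwi-2 in 7, piwi-3 in 6 and bruli in 4, beside overall shares of 64.6%, 93.7%, 72.2% and 44.3%. The gene chd4 was read in 54 cells, of which 53 had piwi-2 and 35 had piwi-1, and mex3-1 in 62, of which 60 had piwi-2 and 39 had piwi-1. Likeness over cells was measured by the share of cells with both transcripts among cells with either. Among the members themselves it was 72.4% for piwi-2 with piwi-3, 60.3% for piwi-1 with piwi-2 and 54.3% for piwi-1 with piwi-3, and bruli had 46.0% with piwi-3 and 45.3% with piwi-2. Among 38 other named transcripts, mex3-1 was nearest to piwi-2 (78.9%), chd4 to piwi-3 (63.2%) and follistatin, which encodes an inhibitor of activin signalling, to piwi-1 (53.7%). Of these 38, prog-2 (44.9%, 22 shared cells) and mex3-1 (44.8%, 30 shared cells) were about equally near to bruli. Nearest to tdrd112 was prog2d (26.9%), with only 7 shared cells. This measure favours transcripts read in many cells. Transcripts of the prog-1 and prog-2 family were read in 64 kept cells, 40 of them with piwi-1 reads, and in 14 of the 17 cells left out. The shares with piwi-1 among chd4, mex3-1 and prog cells were near that of all kept cells.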

How the data were processed

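The authors deposited raw counts of reads per transcript, as whole numbers, for 4 bulk libraries (TruSeq kit, Trizol RNA) and 96 single RNA-low cells (Smart-seq2), per the labels' protocols. The submitters' processing notes name bcl2fastq 1.8.3 and Bowtie2. The counter, its strand setting and the reference transcripts were not given in the sources used here; reads shared by near-identical transcripts could be divided between them. The G0 column of the bulk table was assigned to RNA-low because the columns of the RNA-low cells also begin with G0.

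Bulk counts were scaled by TMM in edgeR 4.0.16 (R 4.3.3), and transcripts of at least 5 CPM in either gate were kept. Ratio intervals are exact conditional binomial, level intervals exact Poisson, and shares of cells exact Clopper-Pearson, all at 95% and from scipy 1.17.1. The limit for 0 cells is 3 of the total. Alternatives were DESeq2 1.42.0 size factors, library totals with and without ribosomal RNA, other added CPM, thresholds, read minimums and cell filters. For the pooled cells they were all reads, and a total without transcripts read in at least 90 of the 96 cells. The bulk libraries and the cells were not tested against each other, and no gene lengths were used. Named genes were the 5 members, the 3 nearest named transcripts by gate profile and by shared cells, of which those described are given, and listed related genes found by name. The members and lists were chosen with earlier results of these data known.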

Additional observations from a re-analysis of the deposited data

Results flagged for a closer look

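Reads of piwi-1 were found in 6 of the 17 RNA-low cells left out for few detected transcripts (35.3%, exact binomial interval 14.2 to 61.7), and reads of piwi-2 in 4 (23.5%, 6.81 to 49.9). These cells took no part in the shares of kept cells, and reads of each gene were found in more than 3 of them. The median number of reads in these cells was 5 for piwi-1, with a highest count of 71, and 41.5 for piwi-2, with a highest count of 98. Whether these wells held cells was not tested.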

How the results depend on the processing

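No paired analysis was possible because each gate has 1 bulk library. The count of members called moved by over 1.5 times in few settings. RNA-low against PM had 1 called with totals without ribosomal RNA, where 34.1% of all transcripts were called, and 4 at 1.5-fold. G1 against PM had 1 called, where 26.1% of all transcripts were, and 5 in the same settings. The share of all transcripts called at 1.5-fold was 57.6% for RNA-low against PM and 42.2% for G1 against PM, and it moved by over 1.5 times in other comparisons too. At 1.5-fold it was 33.1% for RNA-low against G1, 62.4% for RNA-low against S/G2/M and 55.6% for S/G2/M against G1. With 5 CPM added it was 8.99% to 33.1% over the 6 comparisons, and without a filter on low values 25.7% for RNA-low against S/G2/M. S/G2/M against G1 had 1 member called with library totals, where 32.4% of all transcripts were called. S/G2/M against PM had 3 with totals without ribosomal RNA, where 49.6% were. Of 210 alternative log2 ratios of single members, 193 kept their direction and their side of the threshold, 9 fell below it, 7 passed it, and 1 other, that of piwi-2 in RNA-low against S/G2/M, changed sign with library totals while not called. At 5 or more reads the shares of cells were 46.8% for piwi-1, 81.0% for at least 2 members and 30.4% for all 3 PIWI genes. At 10 or more they were 40.5% for piwi-1, 58.2% for piwi-3, 75.9% for at least 2 members and 22.8% for all 3 PIWI genes. Over all 96 cells piwi-2 was read in 81.2% and at least 2 members in 80.2%, and among cells with at least 1000 detected transcripts at least 2 members were read in 98.5%. Leaving out cells with over 4000 detected transcripts, or cells with under 10000 reads other than ribosomal RNA, both chosen after seeing the data, moved no share of a single member beyond its interval. Each member has 1 row per table, so the choice of row could not be varied.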
